A study of Mus musculus with 6 samples.

Results

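Transcripts of 9 dual-specificity MAP kinase phosphatases, Dusp1, Dusp2, Dusp4, Dusp5, Dusp6, Dusp7, Dusp10, Dusp16 and Dusp22, were followed in splenic B cells stimulated through TLR9. The genes were chosen by symbol, and all 9 were found among the 23420 genes of each sample and among the 11233 genes tested. Splenic cells came from BALB/c mice, wild type and 7 to 11 weeks old. B cells were purified with beads and cultured for 4 hours with 10 µg/ml of CpG ODN 1826, a synthetic DNA that activates TLR9, or were left unstimulated. There were 3 samples in each group, each of 10 M cells at 10 M per ml, from 3 mice, and in either group the labels give female for replicates 1 and 2 and male for replicate 3. The labels do not say whether samples with the same number came from the same mouse. By sex, replicate 3 came from other mice than replicates 1 and 2, so the spread within a group is not only technical. P values measure only the spread between these samples, part of which may be technical.

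MAP kinases (ERK, JNK and p38) are switched on by phosphorylation of a threonine and a tyrosine in their activation loop, and dual-specificity phosphatases switch them off by removing both phosphates. Many of these phosphatases are themselves transcribed in response to MAP kinase activity, and so form negative feedback loops that set how long a signal lasts. In lymphocytes and myeloid cells, MAP kinases act downstream of Toll-like receptors and antigen receptors. The family is divided by location and substrate. Dusp1, Dusp2, Dusp4 and Dusp5 encode nuclear, inducible enzymes, Dusp6 and Dusp7 encode cytoplasmic enzymes selective for ERK, and Dusp10 and Dusp16 encode enzymes that prefer JNK and p38. Dusp22 encodes an atypical member without the kinase-binding domain of the others.

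The catalytic loop is what the 9 genes have in common, and its codons are shown here to identify each gene and its place in the genome. The loop starts with a histidine and the catalytic cysteine and ends with an arginine. In the sequences, which were read 5′ to 3′ on the strand of the transcript from the longest coding transcript in GENCODE M21 (GRCm38), the codons of these 3 residues are in capitals.
Dusp1, chr17:26506592-26506615, minus strand, exon 4 of 4: CATTGCcaggccggcatctccCGG
Dusp2, chr2:127337616-127337639, plus strand, exon 4 of 4: CACTGCcaagctggcatctctCGC
Dusp4, chr8:34818433-34818456, plus strand, exon 4 of 4: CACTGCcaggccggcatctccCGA
Dusp5, chr19:53540951-53540974, plus strand, exon 4 of 4: CACTGCgaagctggggtttccCGG
Dusp6, chr10:99266027-99266050, plus strand, exon 3 of 3: CATTGCttggcaggtatcagcCGC
Dusp7, chr9:106373674-106373697, plus strand, exon 3 of 3: CACTGCctagcaggcatcagcCGT
Dusp10, chr1:184074293-184074316, plus strand, exon 4 of 4: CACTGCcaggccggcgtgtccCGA
Dusp16, chr6:134720559-134720582, minus strand, exon 6 of 7: CACTGCttagctgggatctctCGC
Dusp22, chr13:30705696-30707948, plus strand, across the junction of exons 5 and 6 of 7: CATTGCctggctggggtctccAGG
Over these 24 bases, all of them coding, Dusp1 and Dusp4 were identical at 22, as were Dusp4 and Dusp10, whereas Dusp5 and Dusp6 were identical at 13. Dusp6 and Dusp7 shared 19 and Dusp10 and Dusp16 shared 15. In Dusp22 an intron interrupts the loop, which lies within a single exon in the other 8 genes.

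The values are log2 CPM (reads of a gene scaled to a fixed library total, on a log2 scale), quantile normalized by the authors. The commonest value, -5.15, was read as that of no read, which puts 10 reads near -0.76 and 3 reads near -2.34 for a common library of 17.8 M counted reads. These levels are approximate, because 1265 to 1476 genes per sample lay under -5.15, down to -7.93. Quantile normalization removes the sample's own depth, which is unknown here. Markers were counted by their mean over all 6 samples. All 8 B cell markers were above the value of 10 reads, with a median of 8.91. Their summed level was 2948 to 3366 CPM in stimulated and 3950 to 4575 CPM in unstimulated samples. Of 7 T cell markers only Lck was, and the list summed to 124 to 141 CPM in stimulated and 71.1 to 91.7 CPM in unstimulated samples. Of 4 NK cell markers 0 were, and the list summed to 0.72 to 1.33 CPM in stimulated and 0.12 to 0.13 CPM in unstimulated samples. Among them, Klrb1c was at -0.84, 0.23 and 0.23 log2 CPM in stimulated replicates 1 to 3. In every unstimulated sample Klrb1c was under the value of 3 reads. The part of these differences in the results below was not tested. Of 6 myeloid markers 4 were, with summed levels of 10.0 to 15.6 CPM in stimulated and 7.35 to 14.4 CPM in unstimulated samples. These sums hide moves in both directions, whose part in the results below was not tested. Emr1 averaged 2.34 log2 CPM in unstimulated and 3.16 in stimulated samples. Cd14 (0.51 and -1.23), Csf1r (-0.37 and -1.98) and S100a8 (-1.39 and -4.07) were lower on average in stimulated samples, and values of Lyz2 and Itgam overlapped. Of 4 plasmacytoid dendritic cell markers, Bst2, Tcf4 and Ccr9 were, but Siglech was under the value of 3 reads on average in both groups. The list summed to 127 to 134 CPM in stimulated and 252 to 261 CPM in unstimulated samples. This sum is mostly Tcf4, which averaged 7.90 log2 CPM in unstimulated and 6.66 in stimulated samples. Ccr9 was also lower on average with CpG (0.78 and -0.16), whereas Bst2 was higher (3.89 and 4.81). The part of these moves in the results below was not tested. All 4 erythroid markers were detected, and their summed level set replicate 2 apart in both groups: it was 4912 CPM in CpG-stimulated and 3845 CPM in unstimulated replicate 2, against 384 to 611 CPM in the other 4 samples.

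CpG changed the phosphatase genes in both directions. Dusp10, Dusp7, Dusp22 and Dusp5 rose and Dusp6 and Dusp1 fell, by limma at a Benjamini-Hochberg adjusted p (FDR) under 0.05 over all genes tested. Dusp2, Dusp4 and Dusp16 did not pass. Thus 4 of 9 were called higher, where 37.6% of all tested genes were, and 2 of 9 lower, where 36.7% were. In either direction 6 of 9 were called against 74.3% of all genes, a share near the background. With the replicate number as a block, 4 of 9 were called higher (39.1% of all genes) and 4 of 9 lower (38.2%), since Dusp4 and Dusp16 then passed. At the stricter rule of an absolute log2FC over 1, Dusp10 and Dusp7 were higher (15.8% of all genes were) and Dusp6 was lower (15.3% were). The median log2FC of the 9 genes was 0.12, and that of all genes tested 0.00333. Groups did not overlap in 6 of the 9 genes (77.7% of all genes), with 4 higher (39.1% of all genes) and 2 lower (38.6%). In whole cultures, a change in the share of cells that express a gene and a change in its RNA per cell cannot be told apart.

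**Figure D1:**
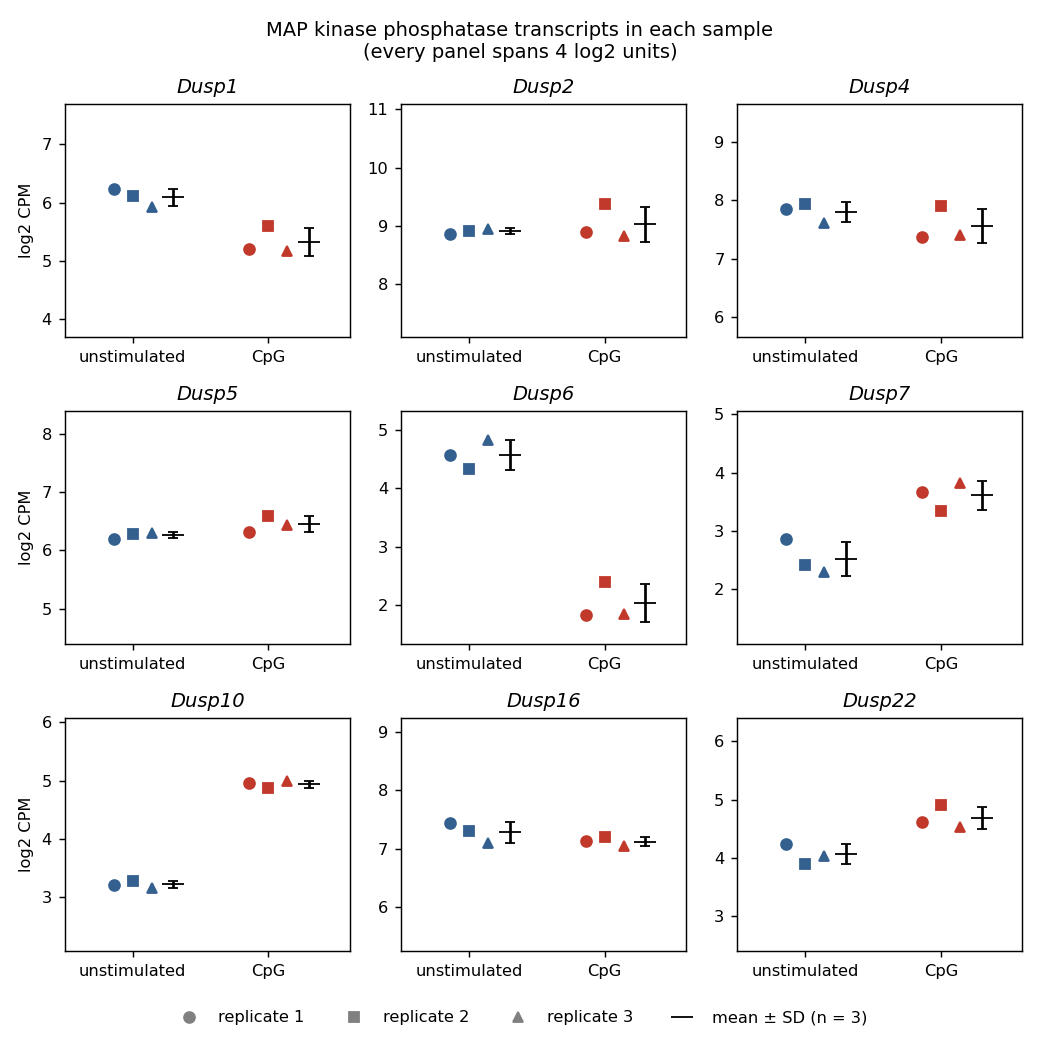
Each panel plots the log2 CPM of a phosphatase gene in the 3 unstimulated (blue) and 3 CpG-stimulated (red) samples, with marker shapes for replicate numbers and bars for mean ± SD; every panel spans the same number of log2 units. Dusp6 fell and Dusp10 rose far outside the spread of the samples, whereas the groups overlapped in Dusp2, Dusp4 and Dusp16, where CpG-stimulated replicate 2 stood highest of its group.

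Of the nuclear enzymes, Dusp1 was the one that fell. It is an immediate early gene whose product restrains p38 and JNK, and in macrophages is known to limit cytokine production after Toll-like receptor stimulation. Dusp1 was at 6.23, 6.12 and 5.93 log2 CPM in unstimulated replicates 1 to 3 and at 5.20, 5.60 and 5.17 in CpG-stimulated ones. All stimulated samples were lower than all unstimulated samples. Its mean went from 6.09 ± 0.15 to 5.32 ± 0.24 (SD, n = 3 each), a log2FC of -0.77 (standard error 0.12, 95% interval -1.04 to -0.50, FDR = 0.000215 by limma). Among all tested genes, 42.6% had a larger absolute log2FC.

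Dusp2, which was first known as a phosphatase of activated lymphocytes, had the highest level of the 9 genes and did not pass. It was at 8.85, 8.92 and 8.95 log2 CPM in unstimulated and at 8.90, 9.37 and 8.82 in CpG-stimulated replicates 1 to 3. Stimulated replicate 2 was above all others, stimulated replicate 1 lay inside the unstimulated range and stimulated replicate 3 under it. The log2FC was 0.12 (standard error 0.12, 95% interval -0.16 to 0.40, FDR = 0.397 by limma), and without stimulated replicate 2 it was -0.050 (FDR = 0.455). The interval leaves room for a rise of up to 0.40 on the log2 scale.

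Dusp4, an enzyme that acts on ERK and JNK, was at 7.86, 7.95 and 7.62 log2 CPM without and at 7.37, 7.90 and 7.41 with CpG. Stimulated replicate 2 again lay above its group and inside the unstimulated range. Over all samples the log2FC of Dusp4 was -0.25 (standard error 0.14, 95% interval -0.55 to 0.056, FDR = 0.123 by limma). With the replicate number as a block, the same log2FC passed (FDR = 0.00695), and without stimulated replicate 2 it was -0.42 (FDR = 0.00160).

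Dusp5 encodes a phosphatase specific for ERK that also holds ERK in the nucleus. It was at 6.20, 6.28 and 6.30 log2 CPM in unstimulated and at 6.32, 6.58 and 6.44 in stimulated samples. The lowest stimulated value was just above the highest unstimulated value. Its log2FC of 0.19 (standard error 0.078, 95% interval 0.017 to 0.36, FDR = 0.0472 by limma) was the smallest of those that passed. The call was lost when any sample other than CpG-stimulated replicate 1 was left out (FDR between 0.0691 and 0.137 by limma, log2FC between 0.12 and 0.21). Of the 2473 bases of its longest coding transcript, 547 also lie in exons of AC137853.2 on the opposite strand. The library kit keeps the strand, but the setting of the counting was not given in the sources used here. None of the other 8 members shares exon bases of its longest coding transcript with a gene on the opposite strand.

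Both cytoplasmic, ERK-selective phosphatases changed, and in opposite directions. Dusp6, a feedback inhibitor whose transcription is driven by ERK itself, had the largest change of the 9 genes. It was at 4.56, 4.32 and 4.82 log2 CPM in unstimulated and at 1.84, 2.40 and 1.84 in CpG-stimulated replicates 1 to 3. Every stimulated sample lay well under every unstimulated sample. The mean fell from 4.57 ± 0.25 to 2.03 ± 0.33 (SD, n = 3 each), a log2FC of -2.54 (standard error 0.18, 95% interval -2.95 to -2.14, FDR = 7.55e-07 by limma), or 5.82-fold. Only 3.58% of tested genes had a larger absolute log2FC. With each sample left out in turn, the log2FC of Dusp6 ran from -2.73 to -2.42.

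Dusp7, a close relative, was low in unstimulated cells and rose. It was at 2.86, 2.41 and 2.30 log2 CPM without and at 3.67, 3.34 and 3.82 with CpG. The groups did not overlap. The mean went from 2.52 ± 0.29 to 3.61 ± 0.25 (SD, n = 3 each), a log2FC of 1.09 (standard error 0.18, 95% interval 0.69 to 1.48, FDR = 0.000284 by limma). It lay close to a log2FC of 1 and was 0.98 without stimulated replicate 3 and also without unstimulated replicate 3. The log2 level of Dusp7 per kb of transcript minus that of Dusp6 was -2.25 ± 0.42 in unstimulated and 1.38 ± 0.56 in stimulated samples (SD, n = 3 each). The order of the pair was thus turned around in every stimulated sample. The sum of both genes, in CPM per kb of transcript, was 10.7, 8.81 and 11.6 in unstimulated and 5.23, 5.05 and 5.69 in stimulated samples.

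The JNK and p38 phosphatases also differed. Dusp10, which inactivates p38 and JNK and is known to restrain innate and T cell responses, was at 3.22, 3.29 and 3.17 log2 CPM in unstimulated and at 4.96, 4.87 and 4.99 in stimulated samples. Taking both groups, replicates were closest together in this gene, and the groups were far apart. Dusp10 rose from 3.22 ± 0.060 to 4.94 ± 0.061 (SD, n = 3 each), a log2FC of 1.71 (standard error 0.089, 95% interval 1.52 to 1.91, FDR = 1.01e-07 by limma), or 3.28-fold. A larger absolute log2FC was seen in 11.3% of tested genes.

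Dusp16, a phosphatase that shuttles between nucleus and cytoplasm and prefers JNK, started from a higher level and did not pass. It was at 7.45, 7.31 and 7.09 log2 CPM in unstimulated and at 7.12, 7.20 and 7.04 in stimulated samples. The ranges overlapped. The log2FC was -0.16 (standard error 0.090, 95% interval -0.36 to 0.038, FDR = 0.126 by limma). With the replicate block it passed (FDR = 0.0268 by limma), as it did without unstimulated replicate 3 (log2FC -0.26, FDR = 0.0182).

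Dusp22, the atypical member, is known as an activator of JNK signaling and, in T cells, as a phosphatase of the kinase Lck. It was at 4.25, 3.90 and 4.04 log2 CPM without and at 4.61, 4.91 and 4.54 with CpG, so that all stimulated samples were higher. The mean went from 4.06 ± 0.17 to 4.69 ± 0.19 (SD, n = 3 each), a log2FC of 0.62 (standard error 0.12, 95% interval 0.35 to 0.90, FDR = 0.00109 by limma). About as many genes changed more as changed less, since 50.8% had a larger absolute log2FC.

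**Figure D2:**
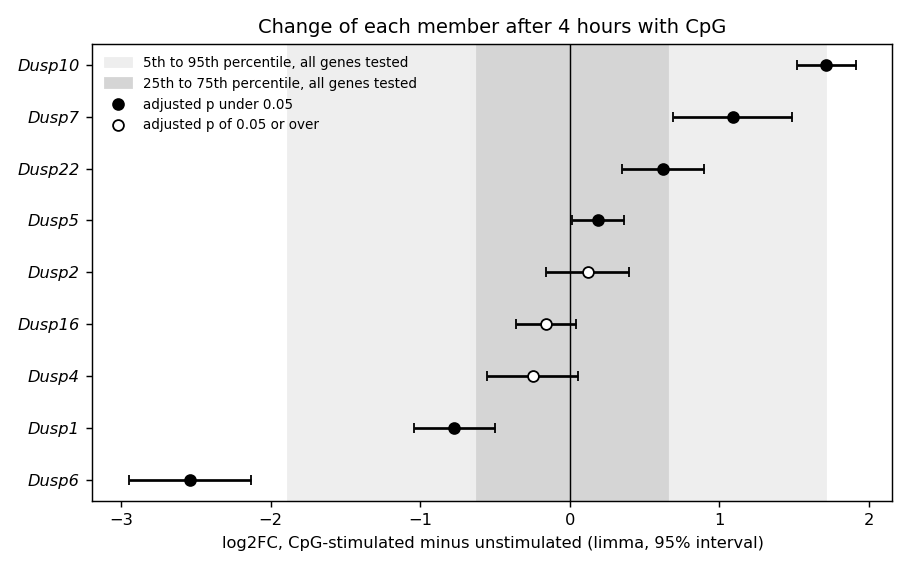
Points are the log2FC of each phosphatase gene, CpG-stimulated minus unstimulated, with 95% intervals from limma (n = 3 in each group); filled points had an adjusted p under 0.05 and shaded bands cover the 5th to 95th and the 25th to 75th percentile of all 11233 genes. Dusp6 (-2.54) lies under the 5th percentile of -1.88 and Dusp10 (1.71) just under the 95th of 1.72, while Dusp2, Dusp4, Dusp5, Dusp16 and Dusp22 lie between the 25th (-0.62) and the 75th (0.65).

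CpG-stimulated replicate 2 was the highest of its group in 7 of the 9 genes (all but Dusp7 and Dusp10), where it was in 35.1% of all tested genes. The same sample had the highest summed level of erythroid markers, and the part of that in these values was not tested. Without replicate 2 in both groups, an alternative chosen after seeing the data, Dusp7, Dusp10 and Dusp22 were called higher (36.5% of all genes) and Dusp1, Dusp4 and Dusp6 lower (35.2%).

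Levels of different genes were compared per kb of the longest coding transcript. In unstimulated cells Dusp2 was the most abundant at 8.21 ± 0.051 log2 CPM per kb (SD, n = 3), followed by Dusp4 at 6.35 ± 0.17. Dusp1 at 5.10 ± 0.15, Dusp5 at 4.95 ± 0.052 and Dusp16 at 4.93 ± 0.18 did not differ beyond their spread. Below them were Dusp6 at 3.08 ± 0.25, Dusp22 at 2.47 ± 0.17, Dusp10 at 1.74 ± 0.060 and Dusp7 at 0.84 ± 0.29. After stimulation Dusp2 (8.34 ± 0.30) and Dusp4 (6.11 ± 0.29) kept the top places, and Dusp6 was last at 0.54 ± 0.33. Dusp10 stood at 3.46 ± 0.061 and Dusp22 at 3.09 ± 0.19. With the median length of coding transcripts in place of the longest, Dusp16 was ahead of Dusp1 and Dusp5 in unstimulated cells.

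Dusp2 alone made up 60.1 ± 2.5% of the summed CPM per kb of the 9 genes in unstimulated and 64.6 ± 2.0% in stimulated samples (SD, n = 3 each). The sum over all 9 was 493, 504 and 488 CPM per kb in unstimulated and 458, 613 and 445 in stimulated samples, so the groups overlapped and stimulated replicate 2 was the highest. Dusp1 contributed 6.96 ± 0.68% before and 4.02 ± 0.048% after stimulation, and Dusp10 contributed 0.677 ± 0.017% before and 2.23 ± 0.46% after. The 4 nuclear enzymes together were at 438, 455 and 441 CPM per kb in unstimulated and at 406, 559 and 395 in stimulated samples. These sums have no test.

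**Figure D3:**
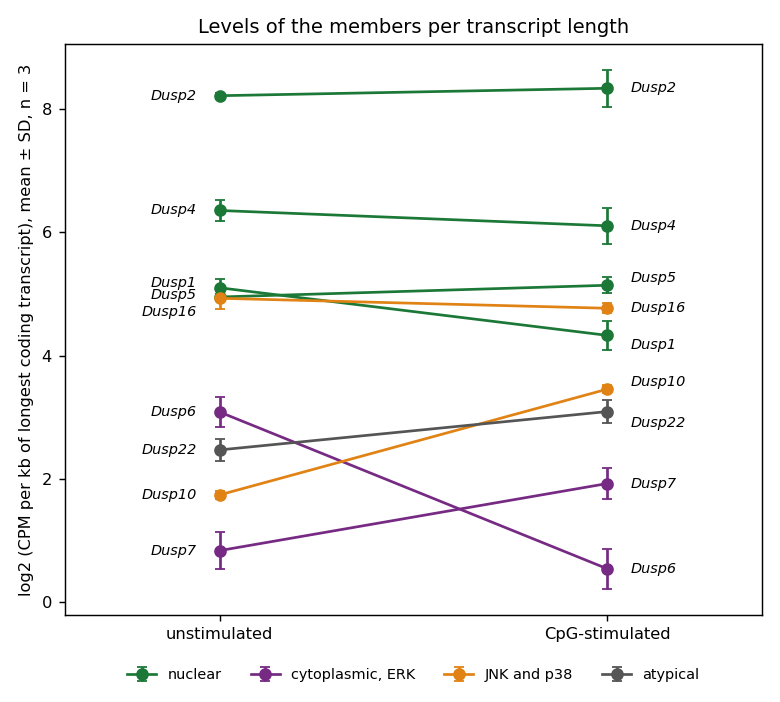
The vertical axis is the log2 of CPM per kb of the longest coding transcript, as mean ± SD over 3 samples, with a line joining the unstimulated and CpG-stimulated mean of each gene and colors for the enzyme class. Dusp2 is the highest line in both groups, and the lines of Dusp6 (3.08 to 0.54) and Dusp7 (0.84 to 1.93) cross.

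Promoters were searched because members of a class moved apart. RefSeq windows (GRCm38.p6) of 250 bases before to 50 after the transcript start were found for 8 members, all but Dusp4. Both strands were searched for the CRE TGACGTCA, its core TGACG, the AP-1 site TGANTCA, the E box CACGTG, the NF-kB consensus and the CArG box, which binds serum response factor. The CRE contains its core. Dusp1 was the only member with a full CRE, which 1.79% of 32851 promoter windows hold, and Dusp5 the only one with CArG boxes, which 1.63% hold. Counted in bases from the transcript start, the CRE of Dusp1 begins at -143, and 2 adjoining CArG boxes of Dusp5 begin at -82 and -72. Windows of 26 bases around these matches are shown, with the match in capitals, on the strand of the gene.
Dusp1 CRE, chr17:26508599-26508624, minus strand: tagggcgggTGACGTCAccgcccggt
Dusp5 distal CArG box, chr19:53529055-53529080, plus strand: ggaaatacCCATATTTGGccttatat
Dusp5 proximal CArG box, chr19:53529065-53529090, plus strand: atatttggCCTTATATGGgcactcac
An E box was found in the windows of Dusp1 and Dusp2 (7.15% of all windows), the CRE core in Dusp1, Dusp2, Dusp5 and Dusp16 (20.8%) and overlapping matches to the NF-kB consensus in Dusp22 (8.46%). The AP-1 site, held by 7.81% of windows, was in 0 of the 8. For Dusp6, Dusp7 and Dusp10, none of the 6 motifs was found in this window. The share of all windows that hold none of the 6 was not counted, so this absence cannot be set beside a background.

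Of the other genes of the family, Dusp8, a JNK and p38 phosphatase, was at 3.29, 3.50 and 2.89 log2 CPM in unstimulated and at 3.24, 3.91 and 3.30 in stimulated samples, with an FDR of 0.273 by limma. Among 17 further atypical and slingshot phosphatases, 10 were tested, 3 of which rose (30%) and 5 fell (50%). Beside this and the lists below, 37.6% of all tested genes rose and 36.7% fell. Dusp14, an atypical phosphatase, had the largest rise, from -0.63, -0.57 and -0.62 log2 CPM, near the value of 10 reads, to 2.63, 2.44 and 2.78 (log2FC 3.22, standard error 0.20, FDR = 3.47e-07 by limma). Dusp12 rose by a log2FC of 1.23 and Styx, a catalytically inactive relative, by 0.77. The slingshot phosphatases Ssh2 and Ssh1, which act on the actin regulator cofilin rather than on MAP kinases, had a log2FC of -3.58 and -2.05, and that of Dusp19 was -1.01. Of 6 tested phosphatases of other families that act on MAP kinase pathways, 4 fell (66.7%) and Ppp2cb rose (16.7%). Ptpn7, a tyrosine phosphatase of ERK and p38 in blood cells, had the largest change among them, a log2FC of -0.97 (FDR = 1.56e-05 by limma).

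Genes of the MAP kinase list changed in both directions as well. Of 10 tested MAP kinases, 3 rose (30%) and 4 fell (40%), near the shares of all tested genes (37.6% and 36.7%). The list is wider than the ERK, JNK and p38 genes named below, of which only Mapk8 rose. The other genes that rose were Mapk7 (log2FC 0.79) and Mapk6 (0.55). Of the p38 kinases, Mapk11 had a log2FC of -1.92, Mapk14 of -1.59 and Mapk12, whose groups overlapped, of -0.80, while Mapk13 was too low to be tested. Mapk14, the main p38 kinase, was at 5.69, 5.47 and 5.72 log2 CPM in unstimulated and at 4.03, 3.90 and 4.19 in stimulated samples, with no overlap. Mapk8, a JNK gene, rose by 0.52 and Mapk9, another, fell (log2FC -0.48). Mapk3, an ERK gene, had a log2FC of 0.028 and did not pass (FDR = 0.748 by limma).

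Of 7 MAP kinase kinases, 2 rose and 2 fell (28.6% each, where 37.6% and 36.7% of all tested genes did). Among the activators of p38, Map2k3 rose by 0.91 and Map2k4 did not pass (log2FC 0.13, FDR = 0.106 by limma), whereas Map2k6, at 0.95, 0.38 and 1.24 log2 CPM in unstimulated samples, was at -1.57, -1.94 and -2.68 in stimulated ones. All its stimulated values were under that of 10 reads, so it was tested only through the unstimulated group and its log2FC of -2.93 is imprecise. Of 15 tested kinases at the top of the cascade, 3 rose (20%, where 37.6% of all genes did) and 9 fell (60%, where 36.7% did). Their median log2FC was -0.57. Map3k8, which activates ERK downstream of Toll-like receptors, rose by 0.83, and Map3k1 (-1.54), Map3k3 (-1.41), Map3k9 (-1.38) and Map3k4 (-1.29) had the most negative log2FC values. Of 10 kinases activated by MAP kinases, Rps6ka1 had the largest rise (log2FC 1.65) and Rps6ka5 (-1.52) and Mknk2 (-1.36) the largest falls.

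Among 12 tested scaffolds and inhibitors of Ras and ERK signaling, 5 rose (41.7%) and 6 fell (50%). Ksr1, a scaffold of the ERK cascade, went from 4.61, 4.36 and 4.53 to 6.83, 6.26 and 6.55 log2 CPM (log2FC 2.04, FDR = 3.93e-07 by limma). The inhibitor Spred1 rose (log2FC 1.62) and its relative Spred2 fell (-0.47). Spred3 went from -2.09, -2.04 and -2.76 to 0.90, 0.22 and 0.095 log2 CPM. It was tested only through the stimulated group, since its unstimulated values were under that of 10 reads, and its log2FC of 2.70 is imprecise. Spry2, like Dusp6 a feedback inhibitor of ERK signaling, fell (log2FC -0.67, FDR = 0.00307 by limma). The Ras inhibitors Rasal3 (-1.69), Rasa3 (-1.01) and Rasa1 (-0.26) fell too, whereas the Ras inhibitors Nf1 (0.58) and Rasa2 (0.51) rose. Over all 71 tested genes of these lists, 20 rose (28.2%, where 37.6% of all genes did) and 35 fell (49.3%, where 36.7% did), with a median log2FC of -0.14 beside 0.00333 over all genes.

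**Figure D4:**
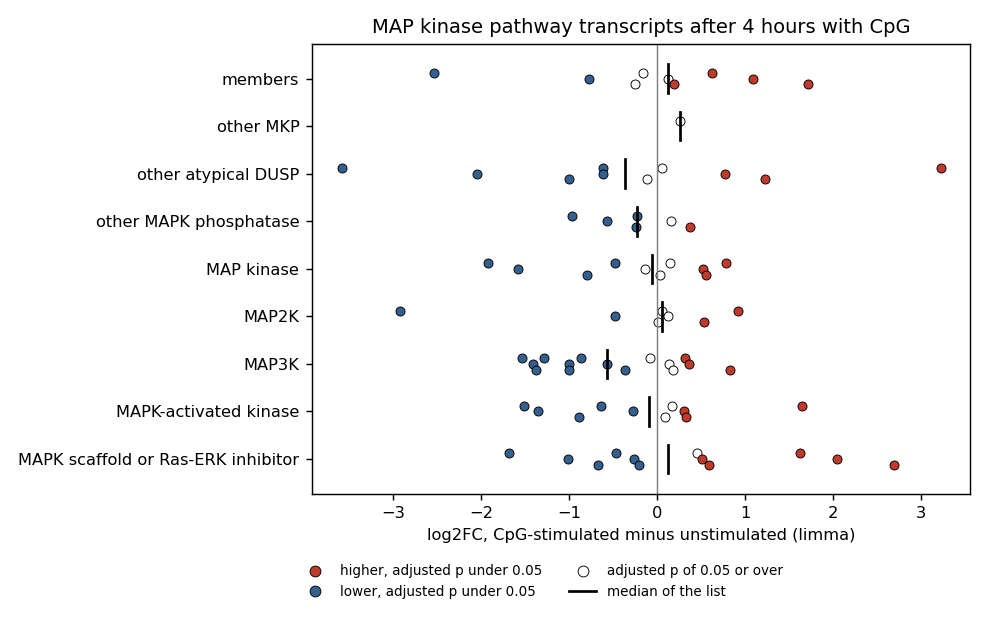
Each point is the log2FC (CpG-stimulated minus unstimulated, limma) of a tested gene in a list of the MAP kinase pathway, red where higher and blue where lower at an adjusted p under 0.05, and open otherwise; bars are list medians. Points lie on both sides of 0 in every list with more than 1 tested gene, and the kinases at the top of the cascade (MAP3K) have the lowest median, -0.57.

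Genes with the pattern most like that of Dusp10 and of Dusp6 were found by the root mean square difference of values centered on each gene's mean over the 6 samples. Those nearest to Dusp10 were Pfdn4 (difference 0.041), Rpp40 (0.049), Cinp (0.060), Prmt7 (0.061) and Ntmt1 (0.064), with log2FC values from 1.68 to 1.80. Nearest to Dusp6 were Crot (0.12), Ccng2 (0.13), Chst12 (0.13), Scarb2 (0.14) and Hmha1 (0.14), with values from -2.54 to -2.46. With 2 groups of 3 samples, such likeness rests mostly on the difference between the groups.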

How the data were processed

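RNA-seq values of 3 CpG-stimulated and 3 unstimulated B cell samples were used, grouped by sample title. Reads were aligned by the authors with STAR 2.6.1a (mm10) and counted per gene with featureCounts (Subread 2.0.1). The authors quantile normalized the counts and converted them with voom. The deposited values are on the log2 CPM scale, with 1 column per sample. Some genes at the level of no read on average, such as Dusp15, held values that differed by replicate number and were the same in both groups. The methods of the study name no step that does this. Its part in the spread between replicates, and so in the p values, was not tested. Quantile normalization fixes the total, so a change in RNA per cell cannot be seen. No counts were used here. The commonest value was read as 0.5 reads.

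Groups were fitted by lmFit and eBayes (with a trend) of limma 3.58.1, under R 4.3.3, over genes above the value of 10 reads in at least 3 samples, with Benjamini-Hochberg adjustment (FDR) over 11233 genes. An exact permutation test of 3 against 3 samples cannot go below 0.1. The fit was also run on simulated data with independent noise in each sample. Those data hold no correlation by replicate number, so the run cannot show what such correlation does to the p values. Members, gene lists and tests were chosen with earlier results of these data known. Named genes were all members, genes of the pathway lists called with an absolute log2FC over 1, and the 5 genes nearest in pattern to the highest and the lowest member; other list genes were named after their values were seen, and some genes of the lists are not reported here by name. Adgre1 and Hbb-bs were matched by older symbols, Emr1 and Beta-s. Positions are from GENCODE M21 (GRCm38), the build of the authors' alignment.

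Pairing by replicate number was checked on deviations from the group means over tested genes. Correlations were 0.435, 0.224 and 0.300 for the same number and at most 0.0279 for other pairs, so a fit with the number as a block was set beside the main one. The lowest value, under the level of no read, was the same in both groups for number 1 (-7.93) and for number 2 (-6.47). Some genes at the level of no read on average also repeated their values by number. Dusp15 was at -4.94, -5.32 and -5.19 in replicates 1 to 3 of both groups, and Ptprr and Nkg7 repeated theirs too. Whether tested genes carry such shared shifts, and how far these add to the correlations, was not tested. The check therefore cannot tell whether samples with the same number came from the same mouse.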

Additional observations from a re-analysis of the deposited data

How the results depend on the processing

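Settings covered the filter, the replicate block, the scale, the variance trend, centring, limma's treat against a log2FC of 1, and each sample left out in turn; leaving out replicate 2 of both groups was added after seeing the data. Dusp1, Dusp6, Dusp7, Dusp10 and Dusp22 kept direction and call in all 14 settings other than treat, which asks for more than 1: there 914 genes were higher and 968 lower, with 1 member over 1 (Dusp10), since Dusp7 (1.09) did not pass. With log2(CPM + 1) also 1 member was over 1; without single samples 1 or 2 were. The pairing of replicate numbers as a block gave 4 members lower (38.2% of all genes), with Dusp4 (-0.25) and Dusp16 (-0.16) added, and changed no other member's call. Dusp5 (0.19) did not pass with no filter or with no variance trend. Without single samples Dusp2 ranged from -0.050 to 0.225, Dusp4 from -0.42 to -0.15, Dusp5 from 0.12 to 0.26 and Dusp16 from -0.26 to -0.080; the log2FC of Dusp2 changed sign without CpG-stimulated replicate 2 (-0.050) and without both replicate 2 samples (-0.045). Without division by length the log2 ratio of the summed JNK and p38 phosphatases was 0.042 in place of 0.18. The causes were not tested. Precision is limited by 3 samples a group, and the depth of each sample is unknown.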

Other observations

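The lists of further dual-specificity and slingshot phosphatases held 9 genes that were not tested because their values were low. Dusp9, an ERK-selective phosphatase, was at -3.49, -3.00 and -2.85 log2 CPM in unstimulated and at -2.09, -1.16 and -2.23 in CpG-stimulated samples, so that it was under the value of 3 reads in every unstimulated sample and above it in every stimulated sample. Dusp23 was at 0.0050, -0.87 and -1.34 in unstimulated and at -1.24, -1.40 and -0.83 in stimulated samples, with overlapping groups close to the value of 10 reads. Dusp15, Dusp21, Dusp26 and Dusp27 were at the level of no read on average in both groups.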
